A study of Mus musculus with 12 samples.

Results

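The genes of the nuclear pore were examined in the murine left atrium (LA) after Notch activation within cardiomyocytes. All gene names that begin with Nup and a number were taken, *Nup62cl* among them, together with *Tpr*, *Seh1l*, *Sec13*, *Rae1*, *Aaas*, *Ndc1* and *Pom121*. These were 28 of the 54658 gene names in the count table. A total of 27 of the 28 passed the filter on low counts, more than 1 CPM (counts scaled to a common library size) in at least 6 libraries, as did 13541 names in all. The family was chosen by the name rule and by the level of *Nup62cl*, which was higher in the Notch-activated LA than in controls, so the genotype difference of *Nup62cl* is given as a description with no test, and the question for the other members is whether they differed as well.

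The nuclear pore complex is the gate through which proteins and RNA pass between nucleus and cytoplasm. A scaffold of inner and outer rings is anchored in the nuclear envelope by membrane nucleoporins, and it holds a central channel whose phenylalanine-glycine repeats, as in NUP62, form the barrier and bind transport receptors. Filaments on the cytoplasmic side and a basket on the nuclear side act in messenger RNA export and import. *Nup62cl* encodes a protein that resembles the C-terminal part of NUP62. Cardiomyocytes rarely divide, and scaffold nucleoporins are long-lived proteins in such cells.

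RNA was sequenced from 6 iNICD mice (*αMHC-rtTA*; *tetO_NICD*), in which doxycycline induces the intracellular domain of Notch1, and 6 littermate controls (*αMHC-rtTA*). Mice of both genotypes were 2 to 3 months old and were fed doxycycline chow for 3 weeks with no washout, so the transactivator and the drug were common to both groups. The αMHC promoter restricts the transactivator to cardiomyocytes, while whole LA tissue was sequenced, and the mice were of a mixed genetic background. The control group held 4 females and 2 males and the iNICD group 3 of each, and every library was labelled a biological replicate.

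Total counts per library were 21432632 to 27182038 and did not differ between the genotypes beyond their spread (exact permutation test of the means, two-sided, *P* = 0.6061). *Notch1* was 108 to 131 CPM in controls and 2975 to 4077 CPM in iNICD, which matched the genotype label in all 12 libraries. Atrial cardiomyocyte markers were abundant in every library, at a summed 84700 to 108013 CPM in controls and 55385 to 68366 CPM in iNICD. Of these 8 genes, 5 were called lower in iNICD (*Myl4*, *Myl7*, *Sln*, *Nppa* and *Tnnt2*), beside 1.34% of all tested genes. Calls are at an adjusted *P* of 0.05 by the quasi-likelihood test of edgeR. Of 4 ventricular markers the sum was 6.54 CPM or less and *Irx4* was at 0 counts in every library. None of the markers tested passed for fibroblasts (7 tested of 7), endothelium (6 of 6), smooth muscle (5 of 5), immune cells (6 of 7), mesothelium (5 of 5) or adipocytes (1 of 4), and neither did any of 6 tested mitosis genes. Over all tested genes 4.12% were called in either direction, and at that share lists this short hold few or no calls. The 12 mitosis genes summed to 5.69 to 18.9 CPM in controls and to 8.53 to 99.8 CPM in iNICD, with iNICD replicates 1 and 3 at 99.8 and 80.1 CPM. The part of these differences in the results below was not tested. Control replicate 5 stood apart from the other controls for many nucleoporin genes, and log2 fold changes without it are given for the members where they moved by over 1.5 times.

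The start of *Nup62cl* is shown with that of *Nup62*, the channel gene it is named after, because the pair differed in response. The 250 bases before each annotated RefSeq start site (GRCm38.p6) are given, *Nup62cl* from the minus strand at chrX:140062569-140062818 and *Nup62* from the plus strand at chr7:44815838-44816087. The RefSeq start of *Nup62cl* lies 144 bases inside the GENCODE gene, so 144 bases of its window are within the gene as GENCODE draws it. Capitals mark CCAAT on either strand (ATTGG where the match is on the other strand).
Nup62cl: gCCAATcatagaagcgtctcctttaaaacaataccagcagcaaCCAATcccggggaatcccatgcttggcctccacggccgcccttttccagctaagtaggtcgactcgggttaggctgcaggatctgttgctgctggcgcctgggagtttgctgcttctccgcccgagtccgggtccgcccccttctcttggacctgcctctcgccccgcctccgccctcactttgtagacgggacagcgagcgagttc
Nup62: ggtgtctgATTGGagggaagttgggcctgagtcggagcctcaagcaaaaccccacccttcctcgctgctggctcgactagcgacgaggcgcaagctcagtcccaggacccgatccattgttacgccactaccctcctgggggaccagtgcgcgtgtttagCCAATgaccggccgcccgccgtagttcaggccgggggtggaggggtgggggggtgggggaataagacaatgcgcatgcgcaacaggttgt
Both windows were rich in G and C, at 60.8% for *Nup62cl* and 63.2% for *Nup62*, with 17 CpG dinucleotides in each. CCAAT was found at 249 and 207 bases before the start of *Nup62cl* and at 242 and 90 bases before that of *Nup62*. CCAAT was present in 33.8% of 32851 windows of this length and in 12 of 26 windows of members. These belong to 10 of 23 members with a window, which were *Nup155*, *Nup214*, *Nup37*, *Nup50*, *Nup62*, *Nup62cl*, *Nup88*, *Nup93*, *Nup98* and *Tpr*. TGGGAA (or TTCCCA on the other strand), the core word bound by RBPJ, the DNA-binding partner of the Notch intracellular domain, was in 21.6% of windows. Among members TGGGAA was in 4 of 26 windows, those of *Nup107*, *Nup37* and *Nup93*, and in neither window printed here. No match says only that these letters are not in this window.

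*Nup62cl* lies on chromosome X (GRCm38, positions 140006805 to 140062712, minus strand; ENSMUSG00000072944.11) and has 5 annotated transcripts with up to 9 exons. Controls held 6, 7, 3, 2, 3 and 2 counts of *Nup62cl* in replicates 1 to 6. The iNICD libraries held 244, 185, 274, 344, 228 and 190 counts. Every iNICD library was thus far above every control, and the groups did not overlap. In normalized CPM, with library sizes scaled by TMM, the level was 0.157 ± 0.0777 in controls and 9.74 ± 1.86 in iNICD (mean ± SD, n = 6 each), a log2 fold change of 5.89 with an SE of 0.26. Summed over libraries, 1465 counts stood against 23. This was rank 2 of 13541 tested genes by fold change, after *Lrrc8e*, a subunit of volume-regulated anion channels, with a log2 fold change of 6.46, and before *Cck*, the gene of the peptide cholecystokinin, at 5.78. The control level rested on 2 to 7 counts per library, so the size of the fold is less certain than its direction. *Nup62cl* passed the filter only through the iNICD libraries, since its controls were at 0.0790 to 0.258 CPM. The gene was chosen for this difference, so its SE and rank are descriptions and no support for it. In bulk tissue, a change in the number of cells that express a gene and a change in RNA per cell cannot be told apart.

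**Figure D1:**
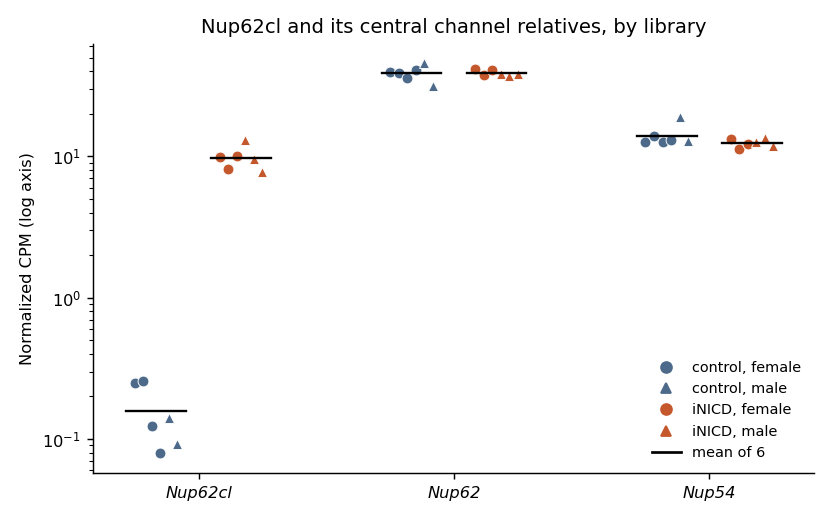
Normalized CPM on a log axis for *Nup62cl*, *Nup62* and *Nup54* in each of the 12 libraries, with circles for females, triangles for males and bars for the mean of 6. The groups are separate for *Nup62cl*, with means of 0.157 in controls and 9.74 in iNICD, and overlap for *Nup62* and *Nup54*.

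*Nup62*, which encodes the channel protein itself, did not share this pattern. Its normalized CPM in control replicates 1 to 6 was 39.8, 38.8, 35.7, 41.0, 45.4 and 31.6. In iNICD replicates 1 to 6 it was 41.6, 37.5, 41.1, 38.2, 37.2 and 38.0. All iNICD values lay within the control range. The log2 fold change of *Nup62* was 0.01 (SE 0.08, 95% interval −0.17 to 0.18, adjusted *P* = 0.975 by the quasi-likelihood test of edgeR), and 0.06 without control replicate 5. The adjustment is that of Benjamini and Hochberg over all 13541 genes. Adjusted *P* values that follow are from the same test and genes unless another tool, filter or set of libraries is named. The transcripts of *Nup62cl* and *Nup62* share no run longer than 12 bases, and *Nup62cl* shares no 50-base word, the length of the reads, with any other annotated transcript. Scaled to transcript length, *Nup62cl* stood at 0.518% of the *Nup62* level in controls, with libraries between 0.246% and 0.850%, and at 32.0% in iNICD, with libraries between 26.2% and 43.6%.

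*Nup54*, whose product binds NUP62 in the channel, was also called in neither direction. Its normalized CPM was 12.7, 13.9, 12.7, 13.0, 18.9 and 12.8 in control replicates 1 to 6. The iNICD values were 13.2, 11.2, 12.2, 12.6, 13.5 and 11.8. Control replicate 5 was the one high library, and the other 5 controls overlapped the iNICD range. For *Nup54* the log2 fold change was −0.17 (SE 0.11, adjusted *P* = 0.432), and −0.07 without that library. A share of 13.9% of the 50-base words of *Nup54* also occurs in *Gm15790*, so reads from those stretches cannot be placed uniquely. The other partner, NUP58, is listed under the older name *Nupl1* with 0 to 2 counts per library. An annotated gene on the same strand, *Gm49336*, covers 48.8% of the exon bases of *Nupl1* and held 831 to 1445 counts per library, so the level of *Nupl1* is uncertain.

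None of the other 26 tested members was called higher or lower in iNICD at an adjusted *P* of 0.05, against 4.12% of all tested genes called in either direction, 2.78% higher and 1.34% lower. DESeq2 and the exact test of edgeR also called 0 of the 26, where DESeq2 called 7.82% of all genes (4.54% higher and 3.28% lower) and the exact test 5.69% (3.63% higher and 2.06% lower). At an unadjusted *P* of 0.05, 1 member was higher (*Nup155*) and 4 were lower (*Nup107*, *Nup85*, *Pom121* and *Sec13*), while 9.32% and 8.09% of all genes were. In no member did the 6 iNICD libraries lie wholly outside the range of the 6 controls, which 3.83% of all genes did (2.58% higher and 1.25% lower). Adjusted *P* values ran from 0.161 to 0.993, and the 95% intervals of the log2 fold changes lay between −0.58 and 0.52.

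**Figure D2:**
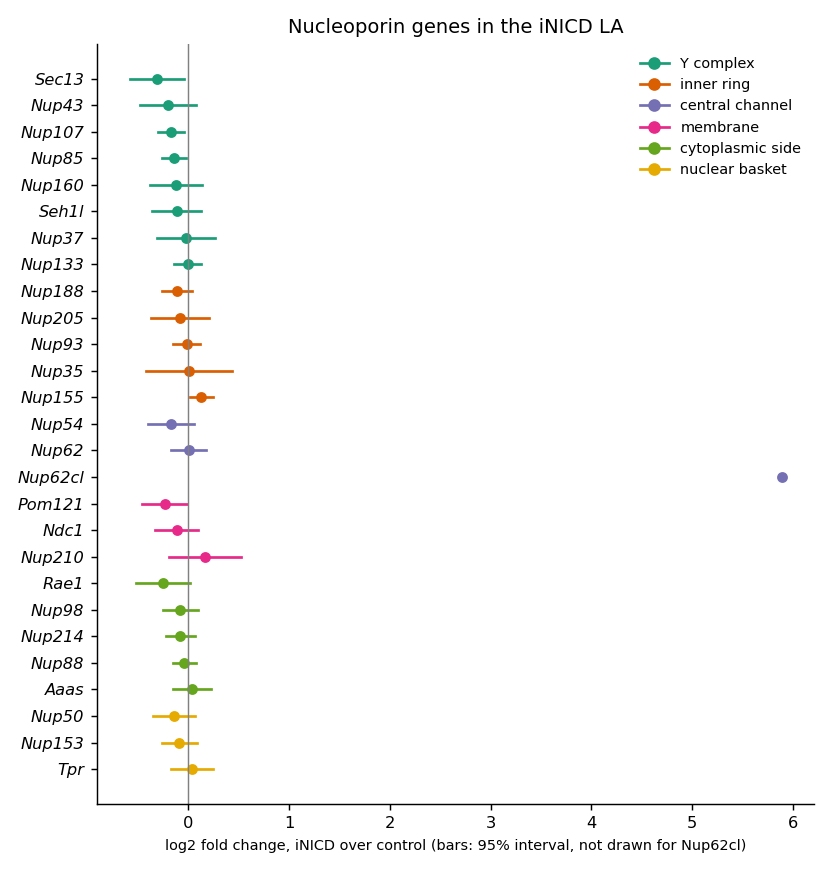
Log2 fold change (iNICD over control) of the 27 tested nucleoporin genes by place in the pore, with 95% intervals for all but *Nup62cl*. The 26 other genes lie between −0.31 and 0.17, and *Nup62cl* is at 5.89.

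The fold changes of the 26 were small and mostly below 0. Their median log2 fold change was −0.09, beside −0.01 over all tested genes, and 20 of 26 were below 0, beside 51.3% of all tested genes. Without control replicate 5 the median was −0.03 and 19 of 26 were below 0, beside 50.1% of all genes in that fit. That fit moved the log2 fold change by over 1.5 times for 19 of the 26, and none was called in it. Leaving out one of the other 11 libraries moved 13 members by over 1.5 times, with values between −0.21 and 0.09, and among members over 0.1 in size these were *Ndc1* and *Nup160*. In control replicate 5 the median member stood 0.25 above the control mean on the log2 scale. The other controls lay between −0.12 and 0.00 and the iNICD libraries between −0.14 and −0.07. These values are TMM-scaled, and a lower TMM factor raises all scaled values of a library. The factor was 0.863 for control replicate 5 and 1.00 to 1.03 for the other controls. Control replicate 5 was the highest control for 16 of the 26 (32.6% of all tested genes) and the lowest for 1 (35.8%). Counted by plain CPM without TMM scaling, an alternative chosen after seeing the data, it was highest for 10 of 26. The share of all genes by plain CPM was not taken.

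**Figure D3:**
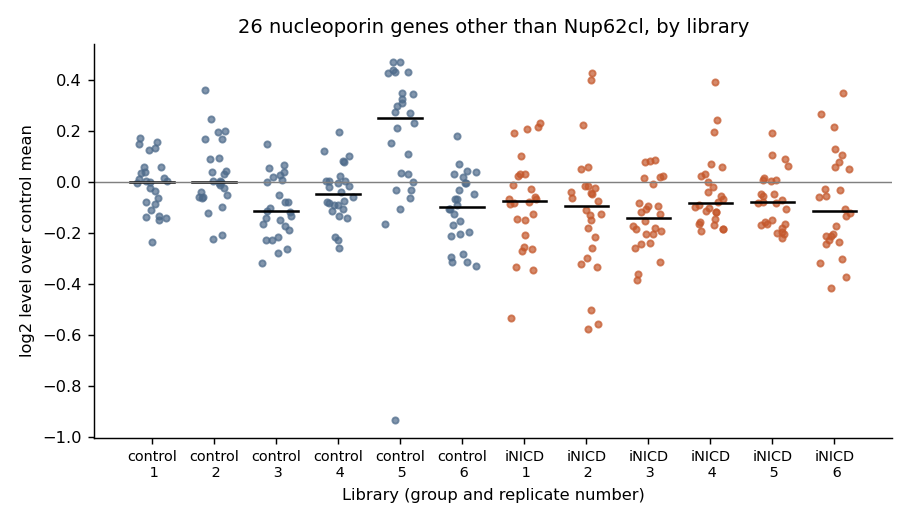
Log2 level over the control mean for the 26 tested nucleoporin genes other than *Nup62cl*, one point per gene in each library, with a bar at the median. Control replicate 5 has a median of 0.25 and the other 11 libraries have medians between −0.14 and 0.00.

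The Y complex, the outer scaffold ring on both faces of the pore, had 8 members, and 0 were called. All 8 fold changes were below 0, with a median of −0.13. Without control replicate 5, 7 of 8 were below 0 with a median of −0.09, and *Nup37* was at 0.05, *Seh1l* at −0.00105, *Nup160* at −0.04 and *Nup133* at −6.29e-05. *Sec13*, which also acts in the COPII coat of secretory vesicles, had the lowest fold change of the tested members other than *Nup62cl*. Its normalized CPM was 110.7, 144.6, 103.9, 101.7, 164.0 and 105.6 in control replicates 1 to 6. In iNICD replicates 1 to 6 *Sec13* stood at 95.8, 85.9, 97.9, 108.6, 108.4 and 91.4. Control replicates 2 and 5 were high, and the other 4 controls overlapped the iNICD range. *Sec13* had a log2 fold change of −0.31 (SE 0.12, adjusted *P* = 0.203), and −0.21 without control replicate 5. *Nup107*, a scaffold subunit of this complex, was 21.2 ± 1.39 CPM in controls and 18.8 ± 0.841 in iNICD, with 5 of 6 iNICD libraries below all controls (log2 fold change −0.17, adjusted *P* = 0.161). *Nup85* was 29.7 ± 2.08 and 27.0 ± 0.375 CPM (log2 fold change −0.14, adjusted *P* = 0.212). The remaining fold changes were −0.20 for *Nup43*, −0.12 for *Nup160* (−0.21 to −0.04 with a library left out) and *Seh1l*, −0.02 for *Nup37* and −0.01 for *Nup133*, with adjusted *P* from 0.442 to 0.973.

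The inner ring, which joins the outer scaffold to the channel, had 5 members with a median log2 fold change of −0.02, and 0 were called. *Nup155*, in which loss-of-function has been linked to familial atrial fibrillation, was 24.6 ± 0.690 CPM in controls and 26.9 ± 1.49 in iNICD. Its controls spanned 23.9 to 25.8 CPM and its iNICD libraries 25.001 to 28.4, with 4 of the 6 above all controls. *Nup155* had a log2 fold change of 0.13 (SE 0.05, adjusted *P* = 0.225). *Nup188* (−0.11), *Nup205* (−0.08), *Nup93* (−0.02) and *Nup35* (0.01) had adjusted *P* from 0.447 to 0.993. Without control replicate 5 these were −0.07, −0.02, −0.03 and 0.11. *Nup35* was low, at 1.71 CPM in both groups, and 39.2% of its 50-base words occur in other annotated transcripts, chiefly *Gm4353*.

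Among the membrane nucleoporins, which anchor the pore in the envelope, 3 of 4 were tested and 0 were called. *Nup210*, known from muscle differentiation, had the highest fold change of the tested members after *Nup62cl*. Its normalized CPM was 13.5, 13.7, 12.5, 13.7, 6.27 and 12.1 in control replicates 1 to 6. The iNICD values of *Nup210* were 12.2, 15.8, 12.6, 14.2, 11.99 and 13.9. Control replicate 5 was low and the other libraries overlapped. The log2 fold change of *Nup210* was 0.17 (SE 0.16, adjusted *P* = 0.638), and 0.04 without that library. *Pom121* was 60.3 ± 11.5 CPM in controls and 51.3 ± 1.51 in iNICD (log2 fold change −0.23, adjusted *P* = 0.272, and −0.13 without control replicate 5), and *Ndc1* was 35.1 ± 2.02 and 32.4 ± 5.07 (−0.11, adjusted *P* = 0.591, and −0.04 without iNICD replicate 2). *Nup210l*, a relative of *Nup210*, did not pass the filter, with 5 to 21 counts per library and means of 0.592 ± 0.205 CPM in controls and 0.449 ± 0.213 in iNICD. It was the other member near the control level of *Nup62cl*, and it was not higher in iNICD by its means.

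Of 5 members listed on the cytoplasmic side, 0 were called, and the median log2 fold change was −0.08. *Rae1*, an mRNA export factor that binds NUP98, was 33.6 ± 7.55 CPM in controls and 28.3 ± 1.29 in iNICD (log2 fold change −0.25, SE 0.12, adjusted *P* = 0.310, and −0.14 without control replicate 5). *Nup98*, *Nup214* and *Nup88* had fold changes of −0.08, −0.08 and −0.04, and *Aaas*, mutated in triple A syndrome, one of 0.04, with adjusted *P* from 0.572 to 0.869. Without control replicate 5, *Nup98* was at −0.02, *Nup88* at −0.02 and *Aaas* at 0.01. In the nuclear basket 0 of 3 were called. *Tpr*, the main filament protein of the basket, was 144.6 ± 18.3 CPM in controls and 148.2 ± 16.9 in iNICD (log2 fold change 0.04, adjusted *P* = 0.880). *Nup153* was at −0.09 and *Nup50*, which assists importin-driven import, at −0.14, with adjusted *P* of 0.604 and 0.484. Without control replicate 5, *Tpr* was at 0.11, *Nup153* at −0.02 and *Nup50* at −0.06.

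Levels between genes were compared per kilobase of the deposited gene length. *Sec13* had the highest level in controls at 38.2 CPM per kb, followed by *Seh1l* at 15.6, *Tpr* at 13.8, *Nup62* at 13.6 and *Rae1* at 13.2. The deposited length of *Seh1l* was shorter than its annotated exons, and on the annotated length it was at 13.3, below *Tpr* and *Nup62*. These last 4 genes overlapped between libraries, while the lowest *Sec13* library was above the highest of each. At the low end were *Nup210* at 1.14, *Nup35* at 0.507, *Nup210l* at 0.104 and *Nup62cl* at 0.0703 CPM per kb, where *Nup210l* and *Nup62cl* overlapped. In iNICD *Nup62cl* was at 4.36 CPM per kb, from rank 28 of 28 in controls to rank 18.

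**Figure D4:**
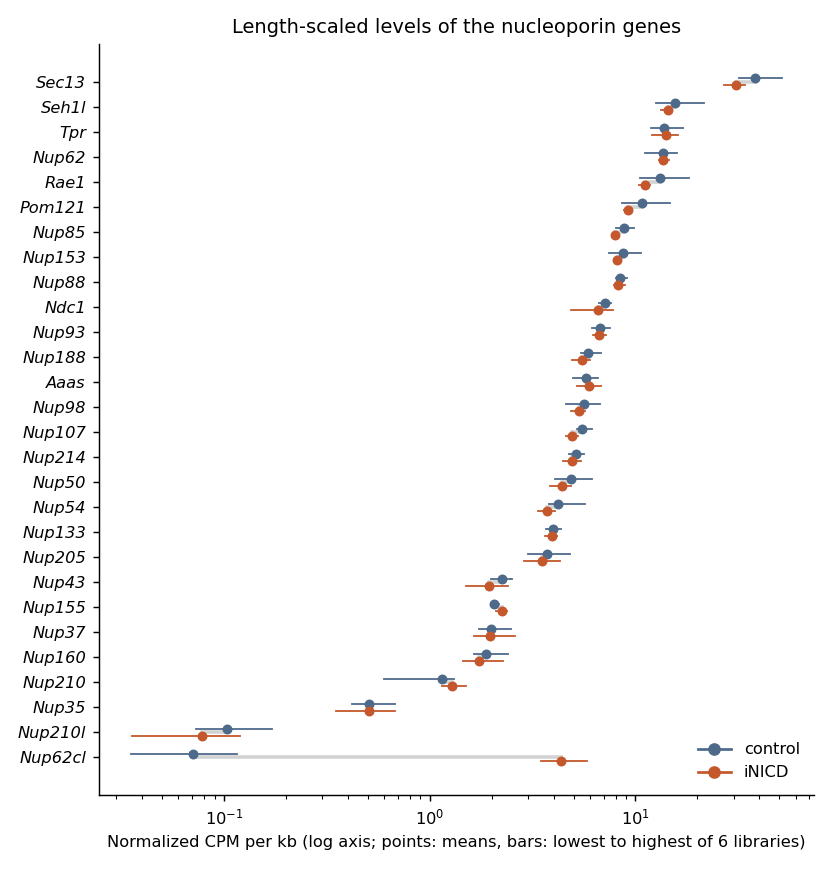
Mean normalized CPM per kb of gene length on a log axis for the 28 nucleoporin genes in controls and iNICD, with bars from the lowest to the highest of 6 libraries. *Nup62cl* goes from 0.0703 to 4.36, while for each other gene the bars of the genotypes overlap.

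*Nup62cl* is X-linked and the sex mix differed between groups, so the sexes were compared. Control females had a mean of 0.177 CPM of *Nup62cl* and control males 0.116, and iNICD females had 9.36 and iNICD males 10.1. In each sex every iNICD library was above every control. None of the other 26 members differed between sexes at an adjusted *P* of 0.05 by edgeR, as did 0.288% of all genes, and 1 did at an unadjusted *P* of 0.05 (*Nup50*, 13.9% of all genes). No gene of the 13541 passed the sex by genotype interaction test of edgeR at an adjusted *P* of 0.05, in a fit with 2 control males. At an unadjusted *P* of 0.05, 3.7% of all genes and 1 member, *Tpr*, passed it. *Tpr* stood at 137 CPM in control females, 162 in iNICD females, 159 in control males and 134 in iNICD males (interaction −0.49 on the log2 scale, adjusted *P* = 0.916). The control males were replicate 5 at 179 CPM and replicate 6 at 139.7, and without replicate 5 the interaction was −0.31 (adjusted *P* = 0.940). Without control replicate 6, which leaves control replicate 5 as the only male control, 4 of the 26 members passed the interaction test (*Nup210*, *Pom121*, *Seh1l* and *Tpr*), as did 12% of all tested genes. In that fit the male controls are 1 library, assumed to vary like the other groups.

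The spread of *Nup62cl* among the iNICD libraries was set against the level of *Notch1* on the log2 scale. Pearson's r was 0.475 (two-sided exact permutation *P* = 0.351) and Spearman's rho 0.543 (exact permutation *P* = 0.297) over 6 libraries, and both were 0.351 after adjustment over the 2 tests. Without the 2 libraries farthest from the median *Notch1* level r was 0.445. With single libraries left out, r ran from −0.30 without iNICD replicate 4 to 0.869 without iNICD replicate 2, so no relation was established at this number of libraries.

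The genes around *Nup62cl* were compared to see whether the difference extended along the chromosome. Of 20 annotated genes with any part within 500 kb of the gene, 6 passed the filter and 0 were called (by the same test, 4.12% of all genes were called). The nearest tested gene was *Rbm41*, an RNA-binding protein gene on the same strand whose start lies 64.1 kb downstream of the *Nup62cl* start, with a gap of 8210 bases between the genes. *Rbm41* held 126, 170, 183, 149, 150 and 130 counts in control replicates 1 to 6. The iNICD counts of *Rbm41* were 285, 214, 269, 217, 160 and 161. In normalized CPM 4 of 6 iNICD libraries were above all controls, and means were 6.33 ± 0.844 and 8.72 ± 1.94 (log2 fold change 0.46, SE 0.15, unadjusted *P* = 0.00932, adjusted *P* = 0.121). Tested in females alone the fold change was 0.72 (adjusted *P* = 0.0488) and in males alone 0.12 (adjusted *P* = 0.889), while the interaction with sex had an adjusted *P* of 0.916. *Morc4*, further downstream, was 8.04 ± 1.03 CPM in controls and 9.44 ± 0.814 in iNICD (0.23, unadjusted *P* = 0.0431, adjusted *P* = 0.269). *Tbc1d8b*, *Tsc22d3*, *Prps1* and *Rnf128* had fold changes of −0.01, −0.04, −0.07 and −0.08, with adjusted *P* from 0.581 to 0.985. With a library left out they ran from −0.06 to 0.08, −0.22 to 0.04, −0.09 to −0.05 and −0.16 to 0.12 in the same order, so the signs of all but *Prps1* turned with 1 library (*Rnf128* was 0.12 without control replicate 5). *Pih1h3b* starts on the opposite strand, 167 bases from the GENCODE start of *Nup62cl* and 311 bases from the RefSeq start. It was at 0 counts in all 6 controls and at 2, 3, 1, 0, 2 and 3 counts in iNICD replicates 1 to 6, so 5 of 6 iNICD libraries were above all controls. The difference rests on 11 counts in all, and the gene was too low for the test.

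**Figure D5:**
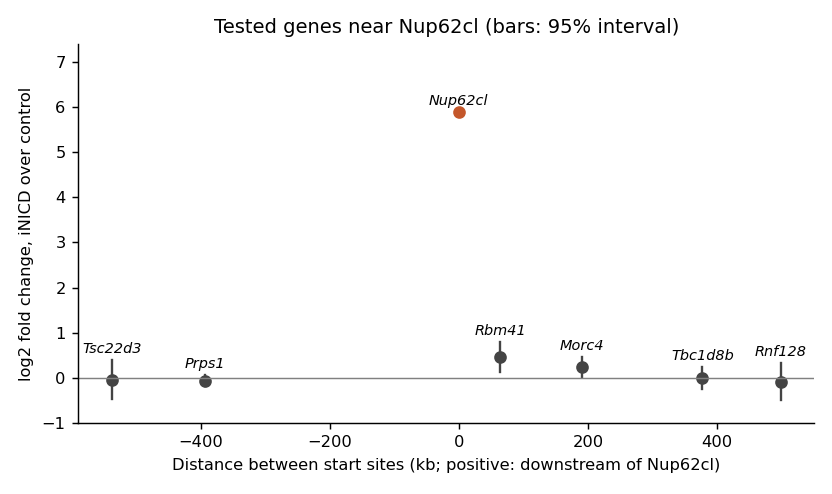
Log2 fold change (iNICD over control) of *Nup62cl* and the 6 tested genes with any part within 500 kb of it, against the distance between start sites in kb, positive for downstream, with 95% intervals for the neighbours. *Nup62cl* is at 5.89 and the neighbours lie between −0.08 and 0.46.

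The wider transport machinery was described from a list of 73 other genes in the table, of which 68 were tested. These were pore genes outside the naming rule, importins, exportins, the Ran cycle that gives transport its direction, mRNA export factors, and the lamina with the complexes that tie the nucleus to the cytoskeleton. Of the 68, 1 was called higher and 0 lower, against 2.78% and 1.34% of all genes, with a median log2 fold change of −0.07 and 47 below 0. Without control replicate 5 the median was −0.02 and 37 of 68 were below 0. The one called was *Eny2*, whose product acts in the SAGA and TREX-2 complexes, at 39.0 ± 1.51 CPM in controls and 46.5 ± 4.18 in iNICD. The controls spanned 37.0 to 40.6 CPM and the iNICD libraries 42.1 to 52.2, with no overlap. The log2 fold change of *Eny2* was 0.26 (SE 0.07, adjusted *P* = 0.0461), just under the threshold, and it passed in 4 of 23 alternatives, where adjusted *P* ran from 0.00708 to 0.776. It stood in both the 15 tested pore genes outside the naming rule and the 11 mRNA export genes, of which no other was called.

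None of 15 tested import receptors, 10 export receptors, 6 Ran cycle genes and 14 lamina and linker genes was called. *Emd*, which encodes the inner nuclear membrane protein emerin, had the lowest fold change among the 68 tested genes, at 53.5 ± 14.4 CPM in controls and 39.8 ± 3.32 in iNICD (−0.43, SE 0.15, adjusted *P* = 0.148, and −0.29 without control replicate 5). *Ranbp2*, the NUP358 gene of the cytoplasmic filaments, was 96.7 ± 16.0 and 94.5 ± 7.43 CPM (−0.03, adjusted *P* = 0.896, and 0.05 without control replicate 5). *Kpna2*, which encodes an importin alpha adaptor, was under the filter and was singled out after its values were seen. It held 20 to 38 counts in controls and 4 to 13 in iNICD, with no overlap, and was called lower with no filter on low counts (log2 fold change −1.67, SE 0.30, adjusted *P* = 0.00691). A share of 62.6% of the 50-base words of *Kpna2* occurs in 12 other annotated genes, so its counts are uncertain.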

How the data were processed

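The authors extracted RNA from flash-frozen LA, removed ribosomal RNA, and sequenced stranded single-end libraries. The deposited values are raw read counts for each gene name, not normalized, with a gene length in bases as a column of another unit. The submitters' processing notes name cutadapt, STAR 2.4.2a, featureCounts of Subread, edgeR and mm10. The paper's methods describe TopHat2 with HTSeq for the LA. For the comparison of both atria they describe another version of STAR with Subread and edgeR on mm10. Which route made the table was not settled. Reads that fit more than one gene may be lost or split in such counts.

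Genes above 1 CPM (counts per library scaled to a common size) in 6 or more libraries entered the quasi-likelihood F test of edgeR 4.0.16 in R 4.3.3 after TMM scaling, two-sided, with Benjamini-Hochberg adjustment over all 13541 genes and a threshold of 0.05. Values are means ± SD of 6 libraries, and SE were derived from the F statistic. The code was tested on simulated data. DESeq2 1.42.0, the exact test of edgeR, other scalings and filters, sex, a replicate block, one sex alone and leaving out each library were tried. Positions are from GENCODE M21 and promoters from RefSeq. Python 3.11.15 was used for sequences. The members and gene lists were chosen with earlier results of these data known. Given library by library were *Nup62cl*, the central channel genes, and the members with the highest and lowest fold changes. Called genes of the other lists, those with the highest and lowest fold changes there, and all tested neighbours are named with means or fold changes. Replicate numbers were taken from the titles. Deviations of same-numbered libraries correlated at −0.15 to 0.41, so the numbers were not taken to pair the mice. Libraries of one group were no copies, since the lowest chi-square per gene between any pair was 16.7. No other columns of per-sample values were present. Right atrial data were not analysed here.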

Additional observations from a re-analysis of the deposited data

Results flagged for a closer look

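Within each genotype the 27 tested members were screened for 1 library far from the other 5 (Dixon's criterion for 6 values). Of 54 groups, 6 had such a library, where chance gives about 1 in 20 (2.7 groups), and in all 6 it was control replicate 5. That library was high for *Nup37* (8.28 normalized CPM, other controls 5.79 to 6.60), *Nup54* (18.9, others 12.7 to 13.9), *Pom121* (81.7, others 48.0 to 60.5), *Seh1l* (75.8, others 44.0 to 55.4) and *Tpr* (179, others 124 to 144). It was low for *Nup210* (6.27, others 12.1 to 13.7). The 6 values come from 1 library and are not independent of each other. They are TMM-scaled, and the TMM factor of that library was 0.863, against 1.00 to 1.03 in the other controls. A lower factor raises all scaled values of a library. The screen was not repeated without TMM scaling, so how many flags depend on it was not tested. The reason for its levels was not tested.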

How the results depend on the processing

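Among the 26 tested members other than *Nup62cl*, 0 were called higher and 0 lower under each of 23 alternatives, 11 of them other settings and 12 leaving out a library. Over 598 values of single members none was called and 4 moved by more than the spread between replicates: *Tpr* was 0.24 in females alone and −0.26 in males alone, and in males alone *Nup210* was 0.52 and *Nup50* −0.31. The fit of males alone had 2 controls, which include control replicate 5. With both sexes and without that library, *Tpr* was at 0.11, *Nup210* at 0.04 and *Nup50* at −0.06. The members' median log2 fold change was −0.13 to −0.03 with a library left out and −0.12 to −0.07 otherwise. The log2 fold change of *Nup62cl* was 5.75 to 6.09 with a library left out and 5.68 to 6.36 otherwise.

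For the other transport and envelope genes the higher count of 1 was 0 under the exact test, RLE scaling, no filter, filterByExpr, sex as a covariate, females alone and males alone, and 0 to 2 with a library left out (2 without control replicate 5, *Eny2* and *Kpna4*). The lower count of 0 was 1 under DESeq2 (*Thoc5*), 1 with no filter and 1 with filterByExpr (*Kpna2*), and 0 to 1 with a library left out (1 without control replicate 5, *Tmpo*). Near *Nup62cl* the higher count was 1 in females alone (*Rbm41*). The cause was not tested. The interaction count was 0 to 4 with a library left out, and r between *Nup62cl* and *Notch1* was −0.30 to 0.87.

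With the replicate number as a block, by titles or by descriptions, which exchange 2 controls, the higher count for transport genes was 0 and the member counts stayed 0. Same-numbered libraries correlated best with each other for 2 of 6 numbers by the titles and 1 of 6 by the descriptions. Counts of 2 to 7 per control library limit the fold of *Nup62cl*.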
